A study of Mus musculus with 18 samples.

Results

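The 7 cholesterol genes described here were all among the 10258 genes tested and the 19454 genes with a row on the array. They are 2 regulators, Insig1 and Srebf2, and 5 enzymes of the synthesis pathway, Hmgcs1, Idi1, Fdft1, Sqle and Cyp51. Members were found by their gene symbol in the platform annotation, and the brightest of the rows for a symbol was used. The 7 symbols had 9 rows, with a second row each for Idi1 and Fdft1.

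Bone marrow cells of C57Bl/6 mice had been grown into macrophages with M-CSF, from wild type (WT) mice or from TTP-/- mice (KO), which lack tristetraprolin, an mRNA-binding protein encoded by Zfp36 that speeds the decay of AU-rich mRNAs. All 6 groups received LPS for 3 h, after which the medium was changed to one with actinomycin D, which stops transcription, and the p38 kinase inhibitor SB203580, and RNA was taken at 0, 45 or 90 min. Each group had 3 arrays, 18 in all, and the time without transcription was also the time with the p38 inhibitor. The labels name the mice TTP-/- and describe no allele. They also do not state whether the 3 arrays of a group had their own mice or dishes. The p-values here therefore rest on the spread among these arrays alone, some or all of which could be technical.

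Cholesterol synthesis starts from acetyl units, which are joined and reduced to mevalonate, turned into isoprene units, condensed into squalene and closed into the sterol ring. The transcription factor SREBP2, the product of Srebf2, drives nearly every step. When sterols are plentiful, INSIG proteins hold SREBP2 and its escort SCAP in the endoplasmic reticulum, and when sterols run low SREBP2 moves to the Golgi, is cut and enters the nucleus. Insig1 is itself a target of SREBP2, and so it closes a feedback loop. In macrophages the pathway works against LXR, a sterol-sensing receptor that drives efflux and limits uptake. The question asked of these genes is whether the mRNAs of the regulators were lost faster than those of the enzymes once transcription stopped.

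The promoters of these genes are the place where SREBP2 acts with the factor NF-Y, and the stretches below show matches found in the members. RefSeq start sites on GRCm38.p6 gave windows of 250 bases before to 50 bases after the start for 5 of the 7 members, and Fdft1 and Sqle are named only. The box CCAAT, bound by NF-Y, or its reverse ATTGG, was in 5 of 5 windows and in 37.4% of all 32851 windows. The letters TCACNCCAC, a sterol regulatory element as found in classical SREBP targets, were searched on both strands and were in the Hmgcs1 window alone among the 5, against 1.24% of all windows. A window without a match says only that these letters are not in it. For NF-Y 1 box per gene is printed. Hmgcs1 also held boxes 237 and 176 bases before and 11 bases after the start site, and Idi1 one 14 bases before. Each stretch is printed along its gene's strand with the match in capitals, and none of the printed matches overlap each other.
Hmgcs1, chr13:119690204-119690233, plus strand, sterol regulatory element starting 137 bases before the start site: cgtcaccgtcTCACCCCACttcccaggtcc
Hmgcs1, chr13:119690294-119690323, plus strand, NF-Y box 45 bases before: tccccgcctctcATTGGctgaaagcggatc
Insig1, chr5:28071184-28071213, plus strand, NF-Y box 216 bases before: cgccctcctcccATTGGctccggcggcctc
Srebf2, chr15:82147122-82147151, plus strand, NF-Y box 135 bases before: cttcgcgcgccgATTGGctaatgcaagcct
Idi1, chr13:8885549-8885578, plus strand, NF-Y box 45 bases before: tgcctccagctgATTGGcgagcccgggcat
Cyp51, chr5:4104709-4104738, minus strand, NF-Y box 29 bases before: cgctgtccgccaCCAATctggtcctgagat
A match is a run of letters and was not measured as a binding site here.

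The titles carry sample numbers that form 2 runs, and the members differed between them. Replicate 3 of every group had the lower numbers and is called series A (6 arrays), and replicates 1 and 2 had the higher numbers and are called series B (12 arrays). The labels do not say what the runs stand for. All 8 macrophage markers were above the signal limit, a log2 intensity of 3.03, whereas 0 of 2 B cell and 0 of 3 T cell markers with a row were. Of the other marker lists, 1 of 5 neutrophil, 2 of 4 dendritic cell and 3 of 5 fibroblast genes were above it, and the summed log2 level of an array ran from 5.42 to 5.90 for fibroblast genes and from 13.19 to 13.69 for macrophage genes. Zfp36, the targeted gene, had a log2 intensity of 7.64 ± 0.45 (SD, n = 3), 4.75 ± 0.25 and 4.12 ± 0.03 in WT at 0, 45 and 90 min and of 6.61 ± 0.31, 5.35 ± 0.24 and 4.99 ± 0.85 in KO. The KO arrays thus kept signal for it, above the WT mean at 45 and 90 min, and whether the probes lie in the deleted part was not tested, so the gene does not check the labels here. Tnf, the yardstick of a TTP target, had a log2 change of -4.24 in WT at 90 min, and its relative half-life there was 21.2 min. The values are relative to the other RNA on the array, so a loss shared by all mRNAs would not show, and fewer cells of a type and less RNA per cell cannot be told apart.

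Insig1, which encodes the endoplasmic reticulum anchor of SCAP, lies on chromosome 5 from 28071412 to 28078662 on GRCm38.p6. In WT its log2 intensity in replicates 1, 2 and 3 was 7.22, 7.23 and 8.05 at 0 min, 7.44, 7.09 and 7.91 at 45 min, and 7.35, 6.97 and 7.71 at 90 min. In KO it was 7.46, 7.09 and 8.32 at 0 min, 6.96, 7.15 and 8.04 at 45 min, and 7.26, 7.47 and 8.28 at 90 min. Replicate 3 was the highest array of every group, and the groups overlapped at all times and in both genotypes. Insig1 did not pass the test for loss over 90 min. With both genotypes averaged the change was -0.05 ± 0.26 (SE, 3 arrays per group). The level at 90 min was 96.4% of that at 0 min, with a 95% interval of 66.1% to 140.5%.

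Srebf2, the gene of SREBP2, lies on chromosome 15 from 82147269 to 82205379. In WT its log2 intensity was 7.25, 7.52 and 7.08 at 0 min, 7.23, 7.23 and 7.09 at 45 min, and 7.25, 6.51 and 8.08 at 90 min. The KO values were 6.75, 6.87 and 7.55 at 0 min, 7.24, 7.13 and 7.94 at 45 min, and 7.16, 7.33 and 8.10 at 90 min. WT at 90 min held both the lowest array of all, replicate 2, and 1 of the 2 highest, replicate 3. The change over 90 min was 0.23 ± 0.24 with both genotypes averaged, which was also not past the test.

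**Figure D1:**
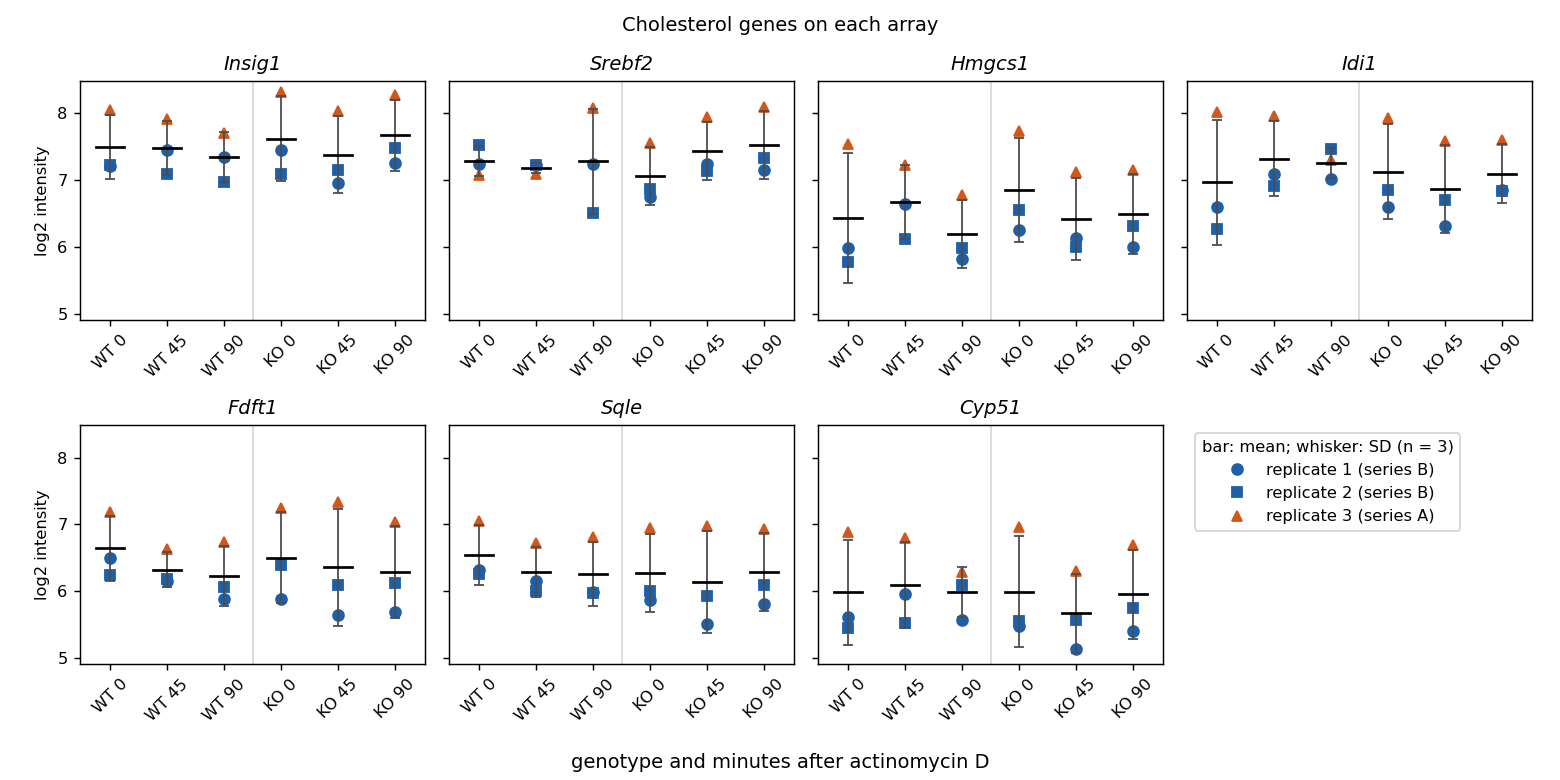
Each panel plots the log2 intensity of 1 gene on each of the 18 arrays against genotype and minutes after actinomycin D; horizontal bars are means and whiskers SD of 3 arrays. Orange triangles, the arrays of series A, lie above both blue points of series B in every group for 5 genes; Idi1 in WT at 90 min (7.30 against 7.46 in replicate 2) and Srebf2 are the exceptions, while the group means of a gene differ by at most 0.65.

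Hmgcs1 encodes the cytosolic HMG-CoA synthase, an early enzyme of the pathway, and lies on chromosome 13 from 119690351 to 119708260. Its log2 intensity in WT was 5.98, 5.77 and 7.55 at 0 min, 6.65, 6.12 and 7.23 at 45 min, and 5.83, 5.99 and 6.77 at 90 min. In KO the values were 6.26, 6.56 and 7.73 at 0 min, 6.14, 6.00 and 7.12 at 45 min, and 6.00, 6.31 and 7.15 at 90 min. This was the gene with the widest spread of group means, 0.65, beside SDs of single groups that ran from 0.51 to 0.97. Over 90 min the change was -0.30 ± 0.34 (SE), and the level at 90 min was 81.3% of that at 0 min (49.3% to 134.1%).

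Idi1, on chromosome 13 from 8885606 to 8892396, encodes the isomerase that interconverts the isoprene units. In WT its log2 intensity was 6.60, 6.27 and 8.02 at 0 min, 7.09, 6.91 and 7.96 at 45 min, and 7.02, 7.46 and 7.30 at 90 min. The KO arrays gave 6.60, 6.85 and 7.93, then 6.31, 6.70 and 7.59, then 6.85, 6.84 and 7.60. The 2 series went different ways in WT: replicates 1 and 2 were higher at 90 min than at 0 min and replicate 3 was lower. Within series B the WT change was 0.80 ± 0.20 (limma adjusted p = 0.0167), and over all arrays it was 0.29 ± 0.44 and not past the test. The series B fit called 765 of the 10258 tested genes higher and 613 lower, against 1 higher and 125 lower over all arrays. The single Idi1 call is therefore not read as a result about the members. With all arrays but WT 0 min replicate 2 the Idi1 change in WT was -0.052.

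Fdft1, the squalene synthase, lies on chromosome 14 from 63145150 to 63181687. Its log2 intensity in WT was 6.49, 6.25 and 7.19 at 0 min, 6.15, 6.18 and 6.63 at 45 min, and 5.87, 6.07 and 6.74 at 90 min. KO arrays gave 5.87, 6.40 and 7.24, then 5.64, 6.10 and 7.33, then 5.69, 6.12 and 7.04. For each replicate number, in WT and in KO, the 90 min array was lower than the 0 min array, and yet the groups overlapped because replicate 3 stood apart. The same order held for Sqle in WT and Hmgcs1 in KO, and the opposite order for Srebf2 in KO. The Fdft1 change was -0.32 ± 0.30 with both genotypes averaged. The second row for Fdft1 gave -0.57 in WT and -0.07 in KO, beside -0.41 and -0.22 for the row used, and the second row for Idi1 gave 0.30 and 0.07, beside 0.29 and -0.03.

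Sqle, on chromosome 15 from 59315092 to 59331193, encodes squalene epoxidase, a rate-limiting oxygen-dependent step. In WT its log2 intensity was 6.31, 6.26 and 7.06 at 0 min, 6.15, 6.01 and 6.72 at 45 min, and 5.99, 5.98 and 6.81 at 90 min. KO arrays had 5.87, 6.01 and 6.94, then 5.51, 5.92 and 6.98, then 5.81, 6.10 and 6.94. All arrays of replicates 1 and 2 lay at or below 6.31 and all arrays of replicate 3 at or above 6.72.

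Cyp51, on chromosome 5 from 4080674 to 4104697, encodes the lanosterol demethylase. In WT its log2 intensity was 5.61, 5.45 and 6.88 at 0 min, 5.95, 5.53 and 6.79 at 45 min, and 5.57, 6.09 and 6.29 at 90 min. The KO values were 5.47, 5.55 and 6.95, then 5.13, 5.57 and 6.31, then 5.41, 5.75 and 6.69. The changes over 90 min with both genotypes averaged were -0.14 ± 0.28 for Sqle and -0.02 ± 0.33 for Cyp51. For all 7 genes, no group was separated from the next group in the order of mean levels.

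With limma and Benjamini-Hochberg adjustment at 0.05, 0 of 7 members were lower at 90 min with both genotypes averaged, and 0 of 7 had an unadjusted p under 0.05. The background was 2.28% of the 10258 tested genes, so a count of 0 of 7 lies near the background and is no result about the members. The lowest adjusted p among the members was 0.905, and their median change was -0.05, beside 0.02 over all tested genes. At 45 min 0 of 7 were lower, against 0.497% of tested genes. The intervals are wide, and the spread between the series described above is part of them.

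Fitting the series as a block narrowed the intervals without moving the values. For Insig1 the 95% interval of the 90 min change went from -0.60 to 0.49 without the block to -0.29 to 0.19 with it. The blocked intervals were -0.16 to 0.62 for Srebf2, -0.22 to 0.48 for Idi1, -0.36 to 0.09 for Sqle and -0.32 to 0.28 for Cyp51. Hmgcs1 and Fdft1 were the members whose blocked interval left out 0, at -0.57 to -0.02 and -0.62 to -0.02. Neither passed after adjustment over all genes, with adjusted p of 0.314 and 0.332 in the blocked limma fit. That fit called 450 of the 10258 tested genes lower, and the share of genes whose blocked interval left out 0 was not counted. Both genes are enzymes, as are 5 of the 7 members. Nothing is read from them about regulators and enzymes.

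**Figure D2:**
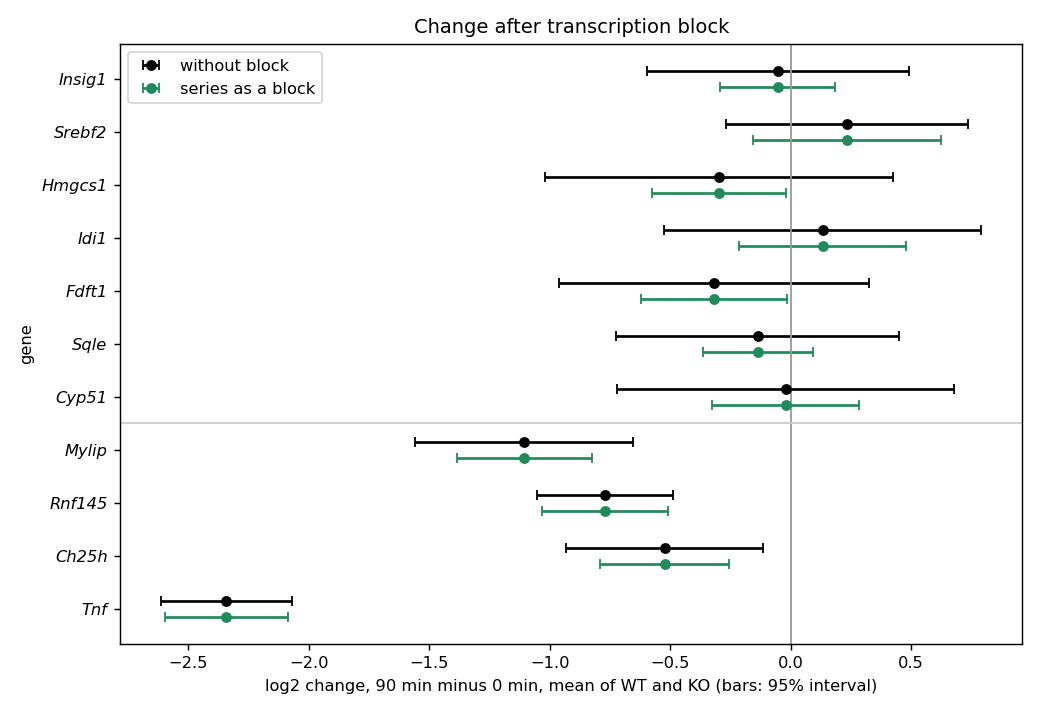
Points are the log2 change from 0 to 90 min averaged over WT and KO, with 95% intervals, for the 7 members and for 4 other genes, without a block (black) and with the series as a block (green). The members lie between -0.32 and 0.23, and Mylip, Rnf145 and Tnf lie at -1.11, -0.77 and -2.34.

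Insig1 was set beside each enzyme on the same replicate numbers, as a description. The 90 min change of Insig1 minus that of an enzyme in WT averaged 0.08 ± 0.49 (SD, n = 3) for Hmgcs1, -0.45 ± 0.93 for Idi1, 0.26 ± 0.43 for Fdft1, 0.13 ± 0.28 for Sqle and -0.15 ± 0.65 for Cyp51. Each of these differences had both signs among the 3 replicate numbers. The WT arrays at 0 and 90 min were not taken as paired, so these SDs and signs depend on the numbering. In KO the difference from Hmgcs1 was positive in 3 of 3 at 0.41 ± 0.31, so that the Hmgcs1 change was the lower. Those from the other 4 enzymes had both signs. At 45 min in WT the differences from Idi1 (-0.37) and Cyp51 (-0.12) were negative in 3 of 3, and that from Sqle (0.235) was positive in 3 of 3. The remaining enzyme differences at 45 min, in WT and in KO, had both signs. Insig1 minus Srebf2 was negative in 3 of 3 in KO at 45 min (-0.62) and 90 min (-0.42), and had both signs in WT. Equal signs in 3 of 3 can arise from spread alone, and many differences were looked at. Those at 45 and 90 min also share their 0 min arrays. Nothing is read from the signs. No relative half-life could be given for any member, since every interval of the slope over time included 0. The lines had no term for the series, so the spread between the series is part of these intervals. The lower limits of the intervals were 99.0 min in WT and 87.5 min in KO for Insig1, 105.2 and 246.2 min for Srebf2, and 56.9 to 103.3 min for the enzymes. No member was called over time in the fits over all arrays, so the calls could not show a division into unstable regulators and stable enzymes. The intervals leave room for losses in either kind.

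Loss was then taken within each genotype and compared between them. In WT alone 0 of 7 members were lower at 45 min (background 0.127%) and 0 of 7 at 90 min (background 1.22%). In KO alone 0 of 7 were lower at 45 min (background 0.0487%) and 0 of 7 at 90 min (background 0.224%). For WT at 45 min, KO at 45 min and KO at 90 min, where same-numbered arrays were taken as paired, the replicate block called 25, 26 and 56 genes lower in place of 13, 5 and 23, and still 0 of 7 members. The WT changes at 90 min ran from -0.41 for Fdft1 to 0.29 for Idi1, and the KO changes from -0.36 for Hmgcs1 to 0.47 for Srebf2. The decay difference, KO change minus WT change, was past the test for 0 of 7 at 90 min (background 0.0195%) and for 0 of 7 at 45 min (background 0.00975%). At 90 min it was 0.20 ± 0.52 for Insig1 and 0.47 ± 0.48 for Srebf2, and from -0.32 for Idi1 to 0.29 for Sqle among the enzymes. For Tnf the same difference was 3.79 ± 0.26.

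**Figure D3:**
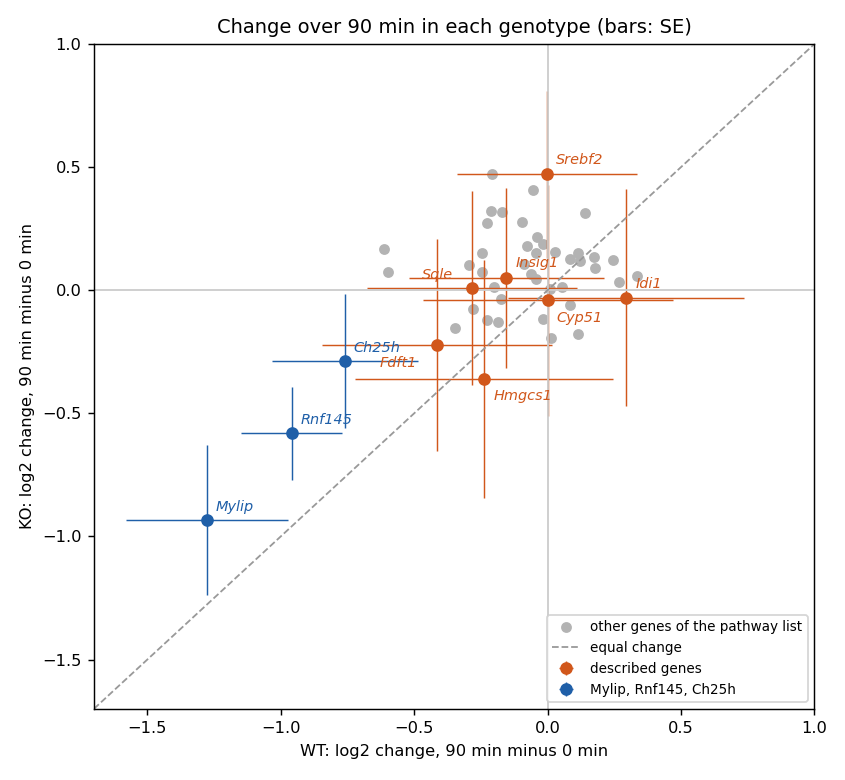
Each point is a gene of the pathway list, with its log2 change from 0 to 90 min in WT on the x axis and in KO on the y axis; bars are SE and the dashed line marks equal change. The members (orange) lie between -0.41 and 0.47 on either axis, and Mylip and Rnf145 (blue) lie at -1.28 and -0.96 in WT and at -0.93 and -0.58 in KO.

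No member passed the test for a difference in level between the genotypes. Averaged over the 3 times, KO minus WT was 0.12 ± 0.21 for Insig1, 0.09 ± 0.19 for Srebf2, 0.15 ± 0.28 for Hmgcs1, -0.15 ± 0.26 for Idi1, -0.02 ± 0.25 for Fdft1, -0.13 ± 0.23 for Sqle and -0.15 ± 0.27 for Cyp51. The background for this comparison was 1.33% of tested genes. Before the transcription block, at 0 min, 0 of 7 members and 0 of 10258 genes passed (0%), while 390 genes were lower and 387 higher at an unadjusted p under 0.05, none of them a member. With the replicate block, since these arrays were taken as paired, 13 genes were lower and 19 higher, Apoe among them and no member. A p that misses the threshold does not show equal levels: the 95% interval for Insig1 over the 3 times ran from -0.33 to 0.56.

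Around the members, a list of 62 genes of the pathway was set by role, of which 50 were tested. At 90 min 2 of the 50 were lower with both genotypes averaged and 0 were higher. That is a share of 4%, near the background of 2.28%, and nothing is read from it about the pathway. The 2 were Mylip, a ubiquitin ligase that is induced by LXR and limits cholesterol uptake, and Rnf145, a sterol-responsive ligase of the endoplasmic reticulum that acts on SCAP. None of the 7 mevalonate enzymes and none of the 12 squalene and sterol enzymes tested were called, with medians of 0.05 and -0.01. The Hmgcs1 and Fdft1 changes above were the largest in those roles, and Scd2, a desaturase, had the largest change among fatty acid genes at -0.26 ± 0.33. Insig2, the second INSIG gene, had a change of 0.15 ± 0.15 and Srebf1 one of 0.18 ± 0.22, and neither passed.

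Mylip, on chromosome 13 from 45389742 to 45411940, had a log2 intensity in WT of 5.62, 6.25 and 5.70 at 0 min, 5.57, 5.33 and 4.73 at 45 min, and 4.75, 4.79 and 4.20 at 90 min. In KO it was 5.55, 5.88 and 4.87, then 4.82, 4.52 and 3.95, then 4.38, 4.94 and 4.18. In WT all 0 min arrays were above all 90 min arrays, and in KO the times overlapped. Mylip fell by 1.11 ± 0.21 with both genotypes averaged (limma adjusted p = 0.00722) and by 1.28 ± 0.30 in WT (adjusted p = 0.0482). The KO change was -0.93 ± 0.30 (adjusted p = 0.471), or adjusted p = 0.0324 with the replicate block, where same-numbered KO arrays deviated together. The call over both genotypes was kept under all 29 other settings. The WT call was lost in 15 of them, among them both centrings and the omission of WT 90 min replicate 1, 2 or 3, WT 0 or 45 min replicate 1 or 2, KO 0 or 90 min replicate 1, or KO 45 min replicate 2, 1 array at a time, with values of -1.39 to -1.08 when an array was left out, -0.89 with an offset of 16, and adjusted p of 0.00049 to 0.236 over all 29 settings.

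Rnf145, on chromosome 11 from 44518793 to 44565520, had a log2 intensity in WT of 6.08, 6.14 and 6.30 at 0 min, 5.79, 5.75 and 5.54 at 45 min, and 5.12, 5.15 and 5.37 at 90 min. In KO it was 6.21, 6.26 and 6.60, then 5.85, 5.59 and 5.92, then 5.31, 6.13 and 5.88. The 3 WT times did not overlap. Rnf145 fell by 0.77 ± 0.13 with both genotypes averaged (limma adjusted p = 0.00267) and by 0.96 ± 0.19 in WT (adjusted p = 0.0130). Its KO change was -0.58 ± 0.19 (adjusted p = 0.468). The WT call was lost without WT 90 min replicate 1 or replicate 2, with ribosomal centring and with only the compared groups fitted. Its value with an array left out ran from -1.04 to -0.90, and its adjusted p over the settings from 0.00323 to 0.121. Relative half-lives in WT were 70.5 min (46.4 to 146.4 min) for Mylip and 93.8 min (75.6 to 123.4 min) for Rnf145. The decay differences, 0.34 ± 0.43 and 0.38 ± 0.27, did not pass.

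Ch25h, a cholesterol hydroxylase, had a change of -0.52 ± 0.19 (limma adjusted p = 0.251), or adjusted p = 0.0193 with the series as a block. The blocked fit called 450 of the 10258 tested genes lower, against 234 without the block.

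Between genotypes 1 of the 50 pathway genes differed over the 3 times, a share of 2% against the background of 1.33%. Apoe, the apolipoprotein that carries cholesterol out of macrophages, was higher in KO by 0.96 ± 0.14 (limma adjusted p = 0.0013), a call kept in all 29 other settings. Its log2 intensity at 0 min was 9.73, 9.88 and 9.23 in WT and 10.89, 10.61 and 10.22 in KO, with no overlap. Apoe lies on chromosome 7 from 19696244 to 19701310, the chromosome of Zfp36, which lies from 28376784 to 28379228. Abca1, the efflux pump driven by LXR, had a KO minus WT difference of 0.67 ± 0.31 that did not pass (limma adjusted p = 0.400), although with the series as a block it did (adjusted p = 0.00119). The blocked fits, by series or by replicate, also called Mylip lower in KO (-0.43, adjusted p = 0.0290 with the series block) and Lrp8, a lipoprotein receptor, higher (0.30). Their background was larger: of 10258 tested genes the series block called 174 lower and 320 higher, and the replicate block 173 and 303. Without a block 46 were lower and 90 higher. Insig2 was higher at 0.49 with ribosomal centring, beside 0.33 ± 0.12 (limma adjusted p = 0.244) as fitted.

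The clearest pattern in the members was the series. A term for series A against series B, added after the values were seen, was positive and past the test for 7 of 7 members, against a background of 17.1% of genes higher in series A and 9% lower. The difference was 0.83 ± 0.10 for Insig1 (limma adjusted p = 7.09e-06), 0.52 ± 0.16 for Srebf2 (0.0226), 1.13 ± 0.11 for Hmgcs1 (1.2e-06), 0.94 ± 0.14 for Idi1 (9.95e-05), 0.96 ± 0.12 for Fdft1 (1.89e-05), 0.92 ± 0.09 for Sqle (1.36e-06) and 1.06 ± 0.13 for Cyp51 (6.57e-06). Their median was 0.94, against 0.08 over all tested genes. Series A is replicate 3 of every group, so the series and the replicate number cannot be told apart. The adjusted p-values take the arrays of a series as independent, which the labels do not state, and they describe these arrays only. The series A array was above the mean of the 2 series B arrays in 6 of 6 groups for each member but Srebf2, where it was higher in 4 of 6. The share of all tested genes that were higher in 6 of 6 was not counted, so nothing is read from that count. For 5 of the 7, Insig1, Hmgcs1, Fdft1, Sqle and Cyp51, every array of series A was above every array of series B, which held for 1.97% of tested genes. The Srebf2 call was lost without WT 90, KO 0, KO 45 or KO 90 min replicate 3, and with arrays centred on their medians or on ribosomal protein genes; its value with an array left out ran from 0.38 to 0.69.

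The series difference reached along the pathway. Of 19 tested enzymes of cholesterol synthesis 16 were higher in series A and 1 was lower, and of the 14 that are not members 11 were higher. Msmo1 (1.11 ± 0.09), Sc5d (1.08 ± 0.11), Mvd (0.95 ± 0.13), Hsd17b7 (0.94 ± 0.15) and Fdps (0.77 ± 0.10) led the non-members, and Lbr, a sterol reductase that is also a nuclear envelope protein, was the lower one (-0.54 ± 0.09). Of the fatty acid genes 5 of 9 were higher and 0 lower, with Scd2 at 1.04 ± 0.14 and Fasn, the fatty acid synthase, at 0.69 ± 0.16. The regulators and handling genes were split: Srebf1 (0.45 ± 0.15), Stard4 (0.70 ± 0.12) and Abca1 (1.24 ± 0.12) were higher in series A, and Insig2 (-0.30 ± 0.10), Mylip (-0.59 ± 0.12), Ch25h (-0.52 ± 0.11) and Apoe (-0.44 ± 0.10) were lower. Among the 50 tested, 28 were higher and 8 lower, with a median of 0.40. What the series stand for, and so what moves with these genes, was not tested.

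**Figure D4:**
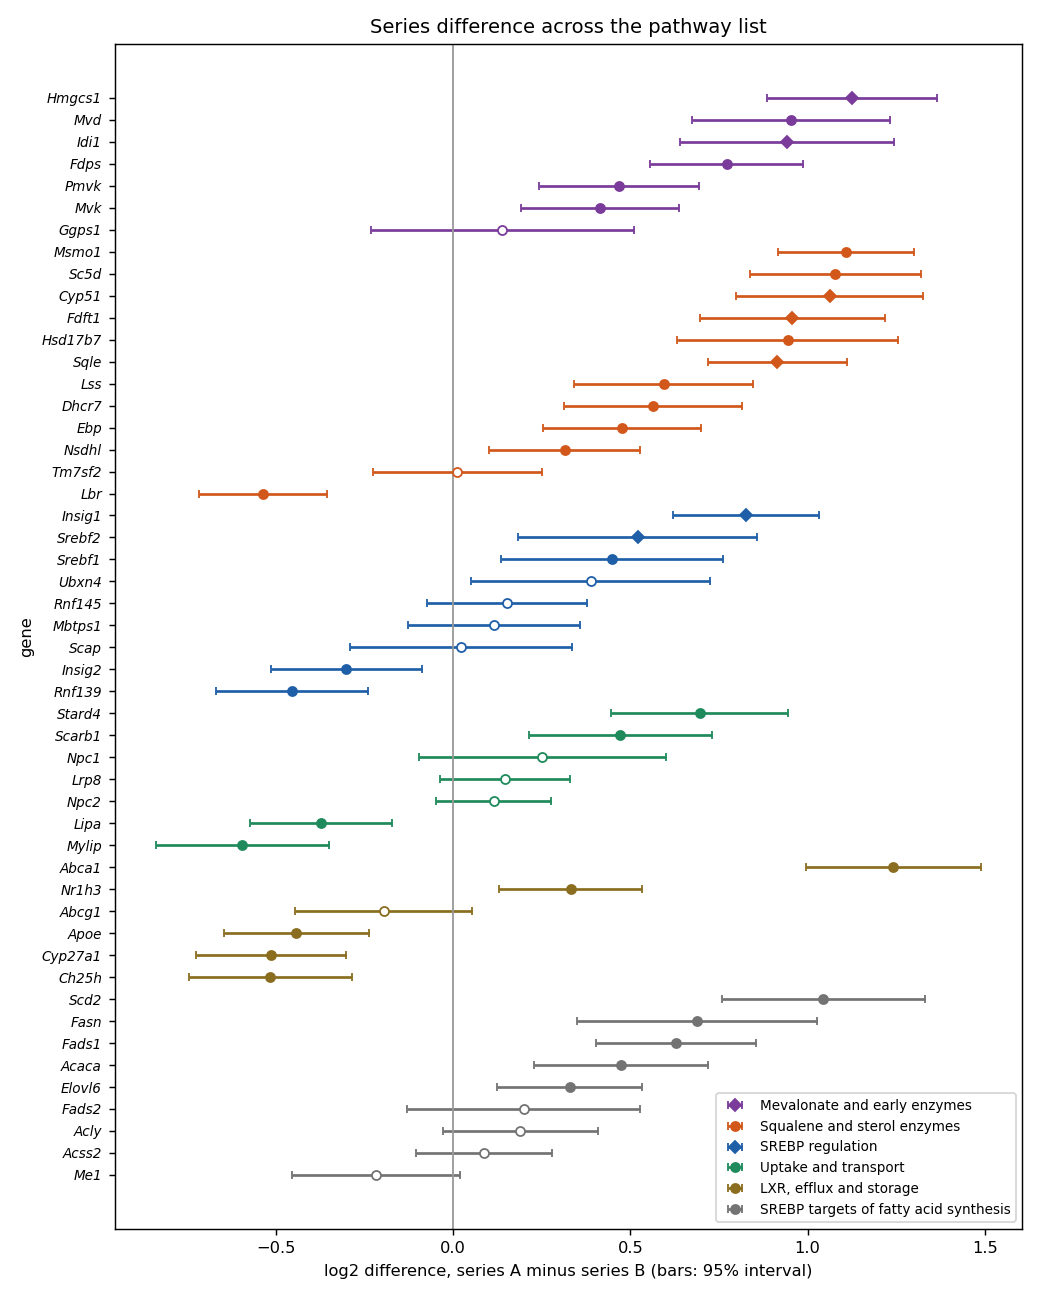
The x axis is the log2 difference of series A minus series B from a limma term beside the 6 groups, with 95% intervals, for the 50 tested genes of the pathway list ordered by role; diamonds are the described members and filled symbols pass an adjusted p of 0.05. The synthesis enzymes lie to the right of 0 except Lbr (-0.54), and 16 of 19 are filled and higher.

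Genes that followed the members over the arrays were chosen by Pearson r over all 18 arrays. Since the 2 series stand apart, r is given within each, over 12 arrays of series B and 6 of series A, as a description. For Insig1 the nearest were Msmo1 (0.24 and 0.88), Sc5d (0.40 and 0.86), Sla (0.43 and 0.91), Ifngr2 (0.20 and 0.78) and Rab3il1 (0.56 and 0.84). For the mean of the 5 enzymes they were Sc5d (0.66 and 0.92), Msmo1 (0.48 and 0.78), Slc7a11 (0.71 and 0.93), Ifngr2 (0.0086 and 0.92) and Il10rb (0.27 and 0.79). Msmo1 and Sc5d are sterol enzymes and were near both profiles.

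Srebf2 followed other genes. Its nearest were Sbf1 (0.89 and 0.99), Furin (0.93 and 0.97), Foxp4 (0.94 and 0.99), Adam15 (0.89 and 0.99) and Esyt1 (0.94 and 0.92), none of them in the pathway list. The 6 pairs of Srebf2 with another member had a median r of -0.08 in series B and -0.30 in series A. The 15 pairs among the other members had medians of 0.22 and 0.53. The arrays within a series share that series and their groups, so these values describe the arrays and carry no test. Series B includes WT 90 min replicate 2, the lowest array for Srebf2. On the first principal component over all tested genes that array was at -23.1, and the other series B arrays were at -14.1 to -5.8. The r without it was not computed.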

How the data were processed

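Total RNA of 18 samples in 6 groups of 3 was measured on mouse whole-transcript arrays from Affymetrix, per the labels' protocols. The deposited table holds linear intensities, made by the authors with RMA in Affymetrix Expression Console, per the submitters' processing notes, which name no version. Array medians were 7.41 to 8.19. The number of arrays limits the precision.

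Of 25138 rows, 21039 carried 1 gene symbol, and the row with the highest mean was kept per symbol. Log2 was taken with no offset. A gene was tested where its top group mean was at least 3.03, the median over rows with 1 symbol. The model was limma 3.58.1 (R 4.3.3) with 6 group means and no block, with Benjamini-Hochberg adjustment over all 10258 tested genes. The fit was tested on simulated data. Members, lists and alternatives were chosen with earlier results of these data known. Named genes were all members, Insig2, Srebf1, Tnf, Zfp36, the largest change per role and the 5 nearest genes per profile. Every pathway gene past the threshold in the main or a blocked fit was also named. Calls made within series B for Scarb1, Fasn, Scd2, Ubxn4, Fads2 and Ggps1 were not described. For the series term, added later, examples were chosen after their values were seen.

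No 2 arrays of a group were identical (correlations 0.940 to 0.993). Same-numbered arrays deviated together, and so were taken as paired, for KO at 90 min (correlations 0.413 to 0.694), KO at 45 min, WT at 45 min and KO against WT at 0 min, and not for the other comparisons. Arrays with different numbers were not compared, and same-numbered arrays also share their series. The correlations therefore cannot tell a pairing by number from the series, and whether the arrays are true pairs was not tested.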

Additional observations from a re-analysis of the deposited data

How the results depend on the processing

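Of 1015 member changes recomputed under 29 other settings, 1 passed the threshold and 95 changed sign. The one was Idi1 in WT at 90 min within series B (0.80), so that 1 member was higher there, among 765 of the 10258 tested genes. Centring on 52 ribosomal protein genes moved the median of all genes to 0.13 for WT at 90 min, 0.17 for KO minus WT, 0.29 for KO minus WT at 0 min, -0.18 for the decay difference at 90 min, -0.17 at 45 min and -0.11 for KO at 45 min. No member passed with the replicate block, whose KO change for Hmgcs1 was -0.36 with a standard error of 0.19. Signs of uncalled values turned as follows, and the cause was not tested.

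Within series B the change over both genotypes was 0.016 for Insig1, -0.036 for Srebf2 and 0.18 for Cyp51. The WT change was 0.031 for Hmgcs1 and 0.30 for Cyp51, the KO change was 0.12 for Idi1 and 0.069 for Cyp51, and KO minus WT was -0.087 for Srebf2. With array medians as the centre the change over both genotypes was 0.015 for Insig1 and 0.048 for Cyp51, and the WT change was 0.11 for both Srebf2 and Cyp51. With ribosomal centring the WT change was 0.14 for both Srebf2 and Cyp51, the KO change was -0.033 for Insig1 and -0.072 for Sqle, and the change over both genotypes was 0.011 for Cyp51. The decay difference was -0.023 for Insig1 and -0.035 for Fdft1, and KO minus WT was 0.014 for Idi1, 0.15 for Fdft1, 0.030 for Sqle and 0.017 for Cyp51. An offset of 16 gave 0.0074 for Srebf2 in WT. The mean of all rows gave 0.019 for Idi1 in KO and 0.0022 for Fdft1 in KO minus WT.

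Leaving out 1 array at a time gave these ranges, for changes at 90 min and for KO minus WT over the 3 times. Insig1 ran from -0.20 to 0.12 over both genotypes, -0.34 to 0.12 in WT, -0.25 to 0.40 in KO and -0.099 to 0.55 for the decay difference. Srebf2 ran from 0.033 to 0.42 over both genotypes, -0.40 to 0.38 in WT, 0.18 to 0.72 in KO, 0.091 to 0.87 for the decay difference and -0.037 to 0.22 for KO minus WT. Hmgcs1 ran from -0.46 to -0.020 over both genotypes, -0.57 to 0.32 in WT, -0.69 to 0.083 in KO and -0.68 to 0.32 for the decay difference. Idi1 ran from -0.041 to 0.40 over both genotypes, -0.052 to 0.82 in WT, -0.29 to 0.37 in KO, -0.85 to 0.078 for the decay difference and -0.28 to 0.026 for KO minus WT. Fdft1 ran from -0.51 to -0.14 over both genotypes, -0.67 to -0.14 in WT, -0.60 to 0.14 in KO, -0.19 to 0.56 for the decay difference and -0.18 to 0.10 for KO minus WT. Sqle ran from -0.30 to 0.031 over both genotypes, -0.56 to -0.026 in WT, -0.32 to 0.34 in KO and -0.034 to 0.63 for the decay difference. Cyp51 ran from -0.21 to 0.22 over both genotypes, -0.27 to 0.45 in WT, -0.41 to 0.44 in KO, -0.49 to 0.44 for the decay difference and -0.31 to 0.0026 for KO minus WT. The series difference kept its call for Insig1, Hmgcs1, Idi1, Fdft1, Sqle and Cyp51 in all 25 settings run for it.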
